A study of Mus musculus with 12 samples.

Results

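The nuclear-encoded genes of the respiratory chain and the ATP synthase were taken as the protein-coding genes of the deposited count table whose symbols begin with Nduf, Uqcr, Cox4, Cox5, Cox6, Cox7, Cox8 or Atp5 and that held at least 10 counts summed over the 12 libraries. This rule kept 84 of the 54532 genes in the table. All 84 also had enough counts to be tested, among 14506 tested genes. By role they were 7 core and 29 accessory subunits of complex I, 8 complex I assembly factors of the Ndufaf series, 8 subunits of complex III, 14 of complex IV, 16 of the ATP synthase, the supercomplex factor Cox7a2l, and Atp5s, which carries the prefix but is no subunit. A further 6 table entries matched by name and biotype and fell below the minimum. These were Cox4i2 with 1 count, Cox8b with 3, Ndufa4l2 with 4, and Cox8c, Cox7b2 and a second identifier for Atp5o with 0.

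The libraries were bulk RNA-seq of resident peritoneal macrophages, the phagocytes that live in the abdominal cavity, from C57BL/6 mice. All cells were kept for 24 h in DMEM, and the groups, with 3 libraries each, were MOPS medium with LPS at 10 ng/ml for 2 h, HEPES medium with the same LPS treatment, MOPS medium without LPS, and HEPES medium without LPS. LPS is a bacterial cell-wall component that activates macrophages through Toll-like receptor 4. The design text gives pH 6.8 before pH 7.4 and MOPS before HEPES, and the pairing of pH with buffer rests on that word order, so each comparison below is of a medium as a whole, in which the effects of buffer and pH cannot be told apart.

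The respiratory chain passes electrons from NADH through complex I, or from succinate through complex II, to ubiquinone, complex III, cytochrome c and finally complex IV, which reduces oxygen. Complexes I, III and IV pump protons out of the mitochondrial matrix, and the ATP synthase makes ATP as the protons flow back. A small set of subunits is encoded in mitochondrial DNA and the others in the nucleus, so each complex except complex II is built from both genomes. Macrophages activated with LPS are known to lean more on glycolysis and to change how they use their mitochondria.

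Promoters of these genes are known for binding sites of NRF1 (nuclear respiratory factor 1), of ETS family factors such as GABPA, and of YY1. In RefSeq promoters on GRCm38.p6, running from 250 bases before to 50 bases after each gene's start, 69 of the 84 genes had an entry. On either strand, the NRF1 motif, spelled GCGC, then A and any base, then GCGC, or its reverse complement, was found in 16 of the 69 (23.2%), against 4.78% of all 27025 promoters. The ETS motif CCGGAAG was found in 15 (21.7%), against 9.12% of all promoters, and the YY1 motif AAGATGGC in 9 (13.0%), against 2.88%. All promoters here include those of genes that were not tested, and the shares among tested genes alone are not given. Of the 69 promoters, 5 held 2 of these motifs, 30 held 1 and 34 held none. A match describes the letters only and shows no binding. The 250 bases upstream of 6 gene starts are shown, 5′ to 3′ on the gene's strand, because these genes differ in the comparisons described further on; the first 4 were chosen after their values were seen. Atp5k (chr5:108434400-108434649, minus strand), Ndufb4 (chr16:37654369-37654618, minus strand) and Ndufs6 (chr13:73328483-73328732, minus strand) had the NRF1 motif and an LPS change that was higher in MOPS than in HEPES. Ndufaf4 (chr4:24897833-24898082, plus strand) had the motif and the opposite difference. Ndufaf7 (chr17:78936885-78937134, plus strand) had the largest tested fall and Cox6b2 (chr7:4753095-4753344, minus strand) the largest tested rise, and both lacked the motif. Capitals mark NRF1 motifs on either strand.
Atp5k: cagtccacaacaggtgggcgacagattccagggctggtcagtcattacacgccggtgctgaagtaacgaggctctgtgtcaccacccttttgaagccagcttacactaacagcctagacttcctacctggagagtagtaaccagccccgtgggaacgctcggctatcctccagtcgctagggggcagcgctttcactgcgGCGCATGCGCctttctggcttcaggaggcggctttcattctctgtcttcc
Ndufb4: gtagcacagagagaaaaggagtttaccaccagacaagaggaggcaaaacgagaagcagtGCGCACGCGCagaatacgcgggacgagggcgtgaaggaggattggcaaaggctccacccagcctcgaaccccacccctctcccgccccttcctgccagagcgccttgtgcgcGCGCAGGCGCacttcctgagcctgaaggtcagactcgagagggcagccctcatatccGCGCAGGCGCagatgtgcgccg
Ndufs6: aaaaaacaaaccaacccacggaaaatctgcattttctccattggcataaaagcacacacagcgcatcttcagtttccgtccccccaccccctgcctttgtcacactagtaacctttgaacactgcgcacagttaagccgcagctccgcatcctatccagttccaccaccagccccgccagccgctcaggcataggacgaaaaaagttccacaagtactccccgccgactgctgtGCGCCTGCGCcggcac
Ndufaf4: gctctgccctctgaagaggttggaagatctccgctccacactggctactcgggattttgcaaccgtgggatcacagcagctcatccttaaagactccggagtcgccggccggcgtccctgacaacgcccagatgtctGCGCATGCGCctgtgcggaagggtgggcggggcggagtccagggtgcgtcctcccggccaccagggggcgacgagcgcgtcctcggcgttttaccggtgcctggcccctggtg
Ndufaf7: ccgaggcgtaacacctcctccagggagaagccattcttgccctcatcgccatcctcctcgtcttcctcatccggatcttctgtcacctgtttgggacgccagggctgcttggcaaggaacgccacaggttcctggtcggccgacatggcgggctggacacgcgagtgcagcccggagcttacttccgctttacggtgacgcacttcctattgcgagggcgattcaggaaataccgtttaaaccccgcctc
Cox6b2: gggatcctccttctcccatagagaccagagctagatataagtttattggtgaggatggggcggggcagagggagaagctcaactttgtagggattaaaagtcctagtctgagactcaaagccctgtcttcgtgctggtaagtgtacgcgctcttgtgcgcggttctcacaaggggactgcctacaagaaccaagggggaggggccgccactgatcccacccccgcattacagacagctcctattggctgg
The match in Atp5k lies 50 to 41 bases before the gene start, that in Ndufs6 lies 16 to 7 bases before it, and that in Ndufaf4 lies 113 to 104 bases before it. Ndufb4 held 3 matches, at 191 to 182, 79 to 70 and 22 to 13 bases before its start. These starts are those of the RefSeq promoters. For Atp5k, Ndufb4 and Ndufs6 they lie inside the gene coordinates given further on, so matches close to the start can fall within those coordinates.

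Per length, the complexes differed widely in level. TPM (the count per gene length, scaled to the same sum in each library, computed here) averaged over the 12 libraries had a median of 153 over complex III genes, 153 over complex IV genes, 117 over ATP synthase genes, 78.6 over complex I accessory genes, 61.3 over complex I core genes and 10.0 over the assembly factors. The highest levels were those of Cox8a at 802 TPM and Cox6a1 at 680.3 TPM, small subunits on the outside of complex IV. Within the ATP synthase the highest were Atp5b at 422 TPM and Atp5a1 at 419 TPM, the catalytic β subunit and the α subunit of the ATP synthase. Within complex I the highest were Ndufa2 at 267 and Ndufa1 at 232 TPM and the lowest was Ndufb2 at 2.68 TPM. These ranks and medians depend on the deposited gene length, which for some genes far exceeded the coding length. It was 5628 bases for Ndufb2 (315 coding), 6883 for Ndufab1 (468 coding) and 8086 for Ndufs1 (2181 coding). In complex III the range ran down from Uqcr10 at 229 and Uqcr11 at 186 TPM to the core subunit Uqcrc1 at 70.4 TPM. The lowest in the ATP synthase was Atp5g1 at 20.01 TPM, and in complex IV it was Cox6b2 at 0.866 TPM.

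**Figure D1:**
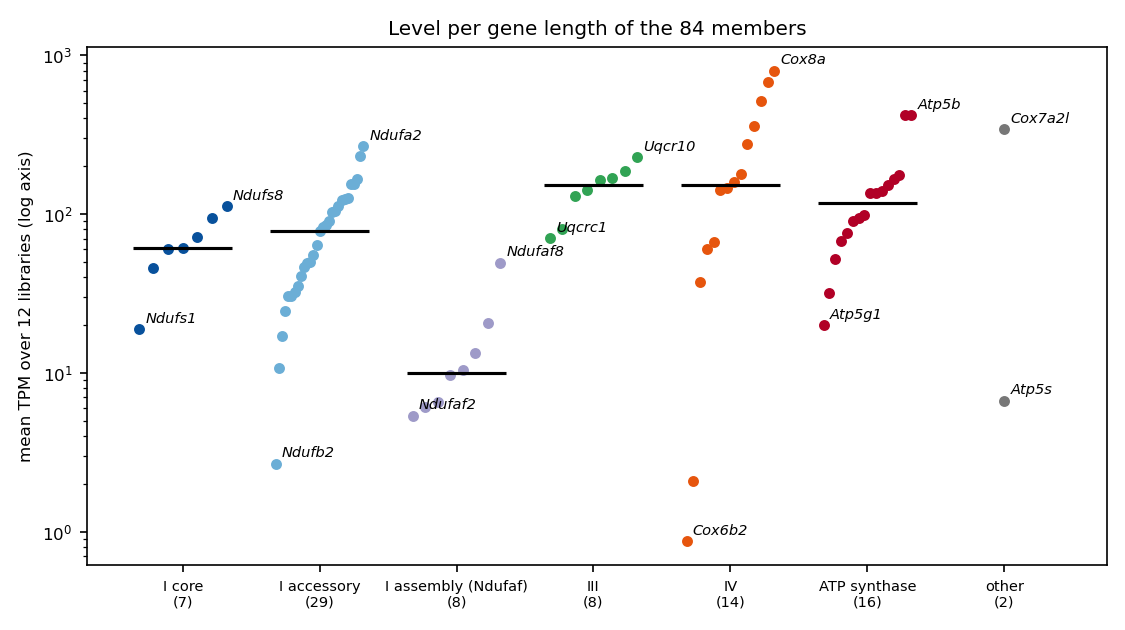
Mean TPM over 12 libraries (log axis) of each of the 84 genes, by role, with the number of genes in parentheses; black lines are medians and the lowest and highest gene of each role are named. Complex III and complex IV genes share a median of 153 TPM, and the assembly factors have a median of 10.0 TPM.

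Library totals ran over 20114613 to 24734853 counts. Markers of peritoneal macrophages (8 of 8 detected) summed to 20266 to 23148 CPM in MOPS with LPS, 32611 to 34265 CPM in HEPES with LPS, 15865 to 16091 CPM in MOPS and 24736 to 26098 CPM in HEPES, where CPM is the count scaled to library size after TMM. Most of that sum was the lysozyme gene Lyz2, at a mean of 13827 CPM in MOPS with LPS, 23350.0 CPM in HEPES with LPS, 12599 CPM in MOPS and 21982 CPM in HEPES. The receptor gene Csf1r went the other way, at 2151 CPM in MOPS with LPS, 1682 CPM in HEPES with LPS, 1661 CPM in MOPS and 1534 CPM in HEPES. Adgre1, the gene of F4/80, had 983, 977, 836 and 875 CPM in the same order of groups. In that order Cd14 had 4816, 6943, 605 and 517 CPM and Timd4 had 28.2, 101, 17.2 and 52.4 CPM. Gata6 had 48.1, 133, 36.7 and 30.2 CPM, Itgam 261, 272, 223 and 253 CPM, and Icam2 9.01, 7.56, 10.9 and 12.3 CPM. B cell markers (6 of 6 detected) summed to 111 to 124 CPM in MOPS with LPS, 23.8 to 27.4 CPM in HEPES with LPS, 189 to 198 CPM in MOPS and 80.5 to 145 CPM in HEPES, so they were higher in MOPS in both states. T and NK cell markers reached at most 1.12 CPM in any library, with Ncr1 at 0. Granulocyte and mast cell markers summed to 10.4 to 25.7 CPM with Ly6g at 0, mesothelial, stromal and endothelial markers to 6.43 to 9.26 CPM, and dendritic markers to 5.64 to 30.2 CPM. The part of other cells in the results below was not tested, and in bulk samples fewer cells of a type and less RNA per cell cannot be told apart.

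Scaling decides the direction of most LPS changes, so it is given first. As a share of all counts in a library, the 84 genes made up 0.467% ± 0.00533 in MOPS with LPS, 0.437% ± 0.00688 in HEPES with LPS, 0.548% ± 0.0123 in MOPS and 0.593% ± 0.0139 in HEPES (SD, n = 3 each). The share was lower in every LPS library than in every untreated one. TMM, the scaling used in the main test, sets the typical gene to about 0 change, and the median of all tested genes then changed with LPS by -0.03 in MOPS and by -0.08 in HEPES on the log2 scale. With plain library totals in place of TMM, these medians fell to -0.547 and -0.669. A rise with LPS on the TMM scale is therefore a rise relative to the typical gene, and calls are on the TMM scale unless library totals are named. On library totals, LPS lowered 65.5% and raised 14.4% of all tested genes in MOPS, and lowered 66.6% and raised 17.2% in HEPES.

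**Figure D2:**
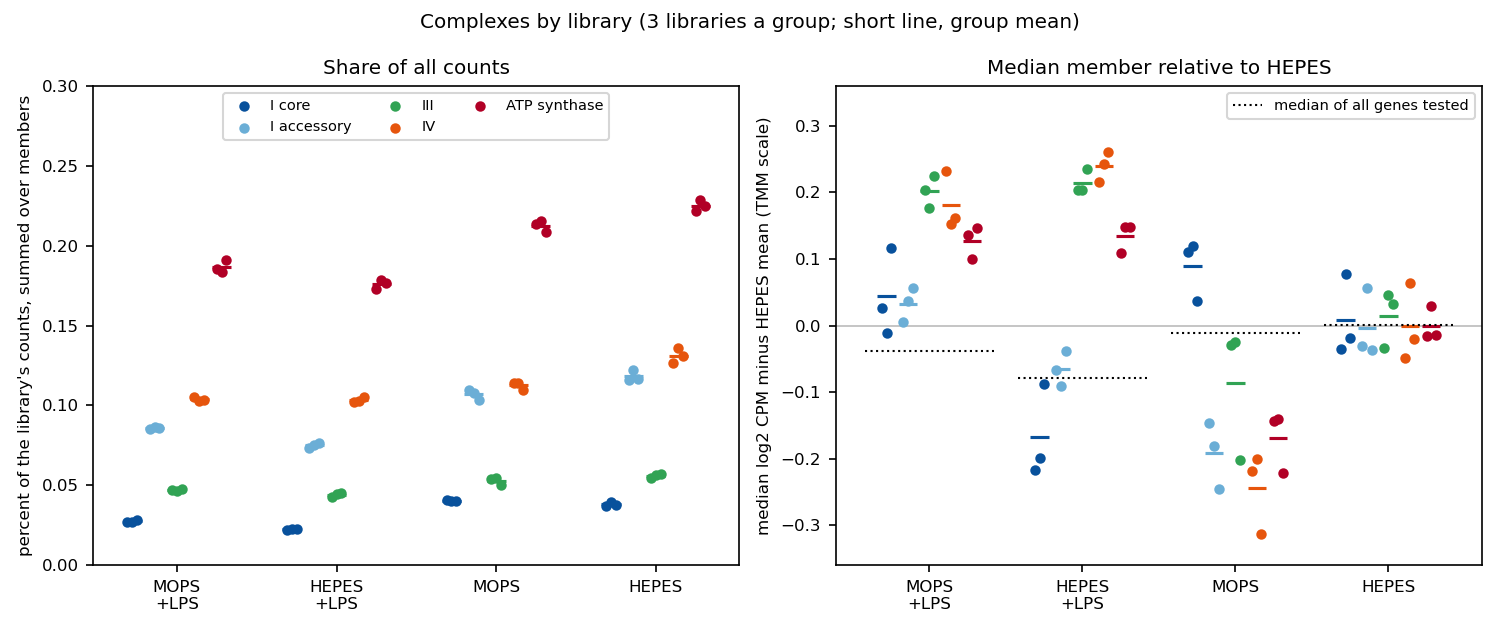
Left, the share of each library's counts held by the genes of each complex; right, the median log2 CPM of each complex minus its mean in HEPES, on the TMM scale, with the median of all tested genes dotted. Points are libraries and short lines group means; with LPS the shares on the left are lower in both media while complexes III, IV and the ATP synthase on the right lie above the typical gene.

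Without LPS, 40 of the 84 genes were lower and 6 were higher in MOPS than in HEPES (edgeR adjusted p under 0.05), beside 25.4% of all tested genes lower and 24.3% higher. The median log2 change of the 84 genes was -0.13, against -0.01 for all tested genes. With LPS, 24 were higher and 13 lower in MOPS than in HEPES, beside 26.9% of all tested genes higher and 26.9% lower, with a median of 0.05 against 0.00469. That split was 40 higher and 6 lower on library totals, beside 33.7% of all tested genes higher and 20.3% lower there. It was 13 higher and 20 lower without HEPES with LPS replicate 10, beside 22.3% and 27.8%. Of the 40 genes that were lower in MOPS without LPS, 11 were lower in MOPS with LPS too, 24 were not called with LPS, and 5 were higher in MOPS with LPS. The matching split over all tested genes is not given here.

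LPS raised 54 of the 84 genes and lowered 8 in MOPS on the TMM scale, beside 34.1% of all tested genes higher and 34.9% lower, whereas on library totals 0 rose and 56 fell, a share close to the 65.5% of all tested genes. In HEPES it raised 31 and lowered 19 on the TMM scale, beside 35.6% of all tested genes higher and 41.2% lower, whereas on library totals 0 rose and 78 fell, beside 66.6% of all tested genes. On library totals the median LPS change of the 84 genes was -0.223 in MOPS and -0.535 in HEPES. For all tested genes it was -0.547 and -0.669, so the median fall of the 84 genes was the smaller in both media. Of the 84 genes, 14 in MOPS and 26 in HEPES lay below the median of all tested genes. All 31 that rose in HEPES on the TMM scale also rose in MOPS, and 4 rose in MOPS and fell in HEPES (Ndufa3, Ndufb3, Ndufb4 and Ndufb8, named after their values were seen). The difference between the LPS changes, MOPS minus HEPES, was tested as an interaction. It was called above 0 in 37 genes and below 0 in 1, beside 21.9% and 17.6% of all tested genes. Called or not, its estimate was above 0 in 70 of the 84 genes. On library totals the interaction was called above 0 in 50 and below 0 in 1, beside 26.8% and 13.6% of all tested genes. Leaving out single libraries with LPS lowered the 37 to 22 without MOPS replicate 7, to 23 without HEPES replicate 10 or 11, and to 24 without HEPES replicate 12. All tested genes were then called above 0 in 17.4%, 16.9%, 17.1% and 16.8%, in that order, and below 0 in 19.7%, 19%, 18.9% and 19.1%. Without MOPS replicate 7 the median interaction went from 0.185 to 0.133 for the 84 genes and from 0.0598 to 0.00837 for all tested genes. Of the 37 genes, 25 were among those lower in MOPS without LPS, and 19 of these 25 were not called between the media with LPS. The interaction equals the medium change with LPS minus that without. A gene lower in MOPS without LPS is thus pushed towards an interaction above 0, and this overlap is no separate result. Matching overlaps over all tested genes are not given here. The shares of all tested genes in this paragraph and the one before also stand beside the counts by role and list below.

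**Figure D3:**
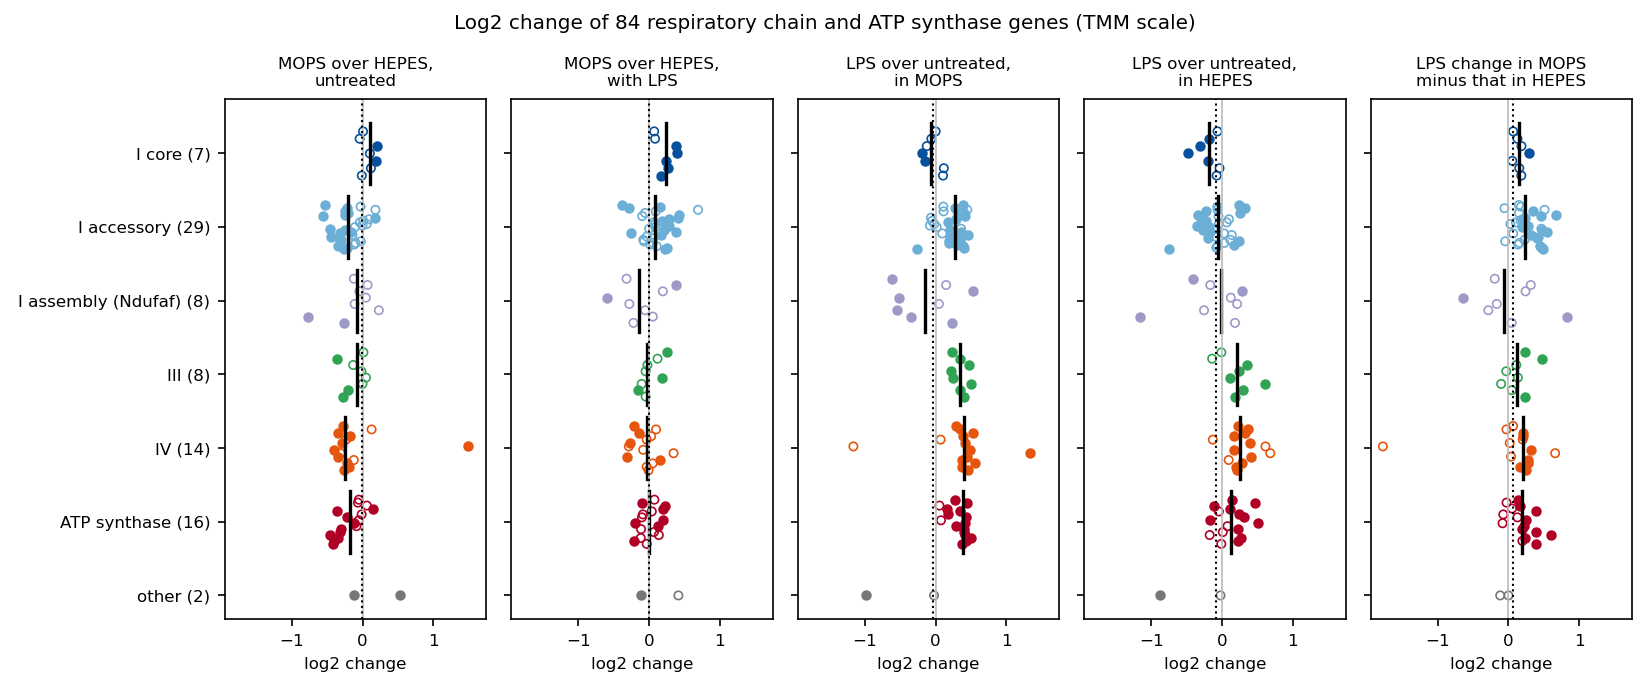
Log2 change of each of the 84 genes (TMM scale) in 4 comparisons and the interaction, by role, with filled points at edgeR adjusted p under 0.05. Thick lines are role medians and the dotted line the median of all tested genes; on library totals the 54 rises with LPS in MOPS and the 31 in HEPES become 0.

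Whether replicates came from separate mice or cultures is not given in the labels, so p-values cover only the library-to-library spread seen here, which may be technical. Reads of overlapping genes on opposite strands could not be told apart without a known strand setting. In 13 of the 84 genes an opposite-strand gene that overlaps an exon had at least 10% of the gene's own count. These were Ndufb2 (Braf, 1481.2%), Ndufs1 (Eef1b2, 374.9%), Ndufaf3 (Impdh2, 246.4%), Cox6c (Vps13b, 128.5%), Ndufs6 (Mrpl36, 100.7%), Atp5j (Gabpa, 98.5%), Ndufb11 (Rbm10, 67.9%), Ndufa11 (Vmac, 47.0%), Ndufa3 (Tfpt, 31.9%), Ndufb5 (Mrpl47, 29.2%), Ndufa2 (Tmco6, 28.3%), Ndufs3 (Kbtbd4, 18.7%) and Atp5f1 (Wdr77, 12.3%). Near-identical copies elsewhere in the genome held at least 10% of the gene's count for Ndufa12 (88.64%), Atp5g1 (35.72%), Ndufab1 (22.69%), Atp5l (20.59%) and Cox5b (10.44%). These percentages compare whole gene counts, and the reads that fall in the overlaps or are shared with copies were not counted. The values of these genes are uncertain to an extent that is not known.

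The core of complex I carries the flavin and the iron-sulfur clusters along which electrons travel. Of its 7 nuclear genes, 5 were higher and 0 lower in MOPS than in HEPES with LPS, and 2 were higher and 0 lower without LPS. Their median log2 change between the media was 0.24 with LPS and 0.10 without. Relative to the median of all tested genes, the median without LPS was 0.117 and ran from 0.0609 without HEPES replicate 4 to 0.166 without HEPES replicate 5. LPS lowered 2 of 7 in MOPS and 4 of 7 in HEPES and raised 0 in either medium, and on library totals all 7 fell in both media. Ndufs7, which holds the last iron-sulfur cluster before ubiquinone (chr10:80249121-80256794), had 38.6, 38.3 and 39.4 CPM in MOPS with LPS against 28.6, 30.5 and 29.4 CPM in HEPES with LPS, and 45.4, 44.8 and 42.7 CPM in MOPS against 38.2, 44.0 and 41.7 CPM in HEPES. The 3 values in HEPES with LPS lay below all others. Its change between the media with LPS was 0.39 ± 0.06 (SE; edgeR adjusted p = 1.87e-06). LPS lowered it, with a log2 change of -0.20 in MOPS and -0.48 in HEPES. The interaction was 0.29 ± 0.08 (SE; edgeR adjusted p = 0.00473), and the other 6 core genes were not called in the interaction on the TMM scale, while on library totals it was called above 0 in 5 of the 7. The median interaction relative to all tested genes was 0.093, and 0.0417 without HEPES replicate 5.

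Ndufs3, a subunit next to the ubiquinone site (chr2:90894634-90904827), had 33.4, 31.5 and 34.1 CPM in MOPS with LPS against 24.1, 24.6 and 27.0 CPM in HEPES with LPS, and 33.7, 36.5 and 37.7 CPM in MOPS against 30.96, 32.9 and 29.9 CPM in HEPES. It was higher in MOPS both with LPS, by 0.39 ± 0.07 (SE; edgeR adjusted p = 9.42e-06), and without LPS, by 0.20 ± 0.06 (SE; edgeR adjusted p = 0.00511), and neither pair of groups overlapped. Ndufs8, another iron-sulfur subunit (chr19:3908870-3912717), had 34.3, 33.4 and 36.5 CPM in MOPS with LPS against 28.2, 28.2 and 31.7 CPM in HEPES with LPS, and 39.0, 38.4 and 38.0 CPM in MOPS against 32.3, 35.6 and 33.4 CPM in HEPES. It too was higher in MOPS in both states, by 0.24 ± 0.06 with LPS and 0.19 ± 0.06 without. Ndufv1, which binds NADH and flavin, was higher in MOPS with LPS by 0.27 ± 0.06 (SE; edgeR adjusted p = 0.000125), and Ndufv2 by 0.17 ± 0.06 (SE; edgeR adjusted p = 0.0171). Ndufs1, the largest core subunit, had log2 changes of 0.07 ± 0.05 with LPS and 0.01 ± 0.05 without, neither called on the TMM scale, and on library totals the first was called (0.16, adjusted p = 0.00638). Levels of Ndufs1 stayed within 46.2 to 51.0 CPM over all 12 libraries.

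The 29 accessory subunits of complex I surround the core and are needed for its assembly and stability. Without LPS, 16 of 29 were lower and 1 was higher in MOPS (median log2 change -0.21), and with LPS 3 were lower and 11 higher (median 0.09). LPS raised 18 and lowered 1 in MOPS on the TMM scale, but on library totals 0 rose and 20 fell. In HEPES it raised 5 and lowered 10, and on library totals 0 rose and 28 fell. The interaction was called above 0 in 15 of 29 and below 0 in 0.

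Ndufa3, a small membrane-arm subunit (chr7:3617373-3620327), had 51.4, 42.4 and 46.7 CPM in MOPS with LPS against 34.2, 35.0 and 35.7 CPM in HEPES with LPS, and 37.8, 35.5 and 39.2 CPM in MOPS against 44.0, 45.9 and 43.4 CPM in HEPES. Its 3 values in MOPS with LPS lay above the 3 in HEPES with LPS, while without LPS the MOPS values lay below the HEPES values. LPS raised it by 0.32 ± 0.06 (SE; edgeR adjusted p = 2e-05) in MOPS on the TMM scale, where library totals gave -0.19, and lowered it in HEPES, by a log2 change of -0.35 ± 0.06 (SE; edgeR adjusted p = 6.79e-06). The interaction was 0.67 ± 0.09 (SE; edgeR adjusted p = 1.84e-07), the largest among complex I subunits. Between the media its log2 change was 0.42 ± 0.06 with LPS and -0.25 ± 0.06 without, both called. Ndufb4, at the far end of the membrane arm (chr16:37647170-37654453), followed the same order with 32.3, 34.6 and 32.9 CPM in MOPS with LPS against 24.7, 25.4 and 26.5 CPM in HEPES with LPS, and 26.8, 25.2 and 25.5 CPM in MOPS against 27.95, 30.4 and 28.1 CPM in HEPES. The 3 values in MOPS with LPS were the highest of the 12. Its interaction was 0.54 ± 0.09 (SE; edgeR adjusted p = 6.8e-06), with LPS changes of 0.37 in MOPS and -0.17 in HEPES, where library totals gave -0.15 and -0.76.

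Ndufv3, which sits beside the NADH-binding subunits (chr17:31520115-31531326), had 22.6, 21.0 and 22.6 CPM in MOPS with LPS against 17.2, 19.4 and 19.7 CPM in HEPES with LPS, and 25.4, 27.2 and 26.3 CPM in MOPS against 31.3, 32.3 and 31.1 CPM in HEPES. The 4 groups did not overlap one another, with HEPES highest and HEPES with LPS lowest. With LPS it fell by 0.26 ± 0.07 (SE; edgeR adjusted p = 0.000985) in MOPS and fell by 0.75 ± 0.07 (SE; edgeR adjusted p = 1.03e-11) in HEPES on the log2 scale, as it did on library totals. The interaction was 0.49 ± 0.09 (SE; edgeR adjusted p = 7.99e-05). Ndufs6, a zinc-binding subunit of the matrix arm (chr13:73319838-73328542), had 28.1, 27.7 and 26.7 CPM in MOPS with LPS against 22.0, 22.9 and 24.4 CPM in HEPES with LPS, and 19.8, 21.5 and 21.3 CPM in MOPS against 23.9, 25.7 and 23.7 CPM in HEPES. Its interaction was 0.48 ± 0.09 (SE; edgeR adjusted p = 0.000106). Ndufb3 had an interaction of 0.47 ± 0.10, Ndufs5 of 0.45 ± 0.08, Ndufb7 of 0.42 ± 0.08 and Ndufb8 of 0.40 ± 0.08, all called above 0.

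Among accessory genes lower in MOPS without LPS, Ndufa5 (chr6:24518666-24528013) had 22.1, 23.1 and 20.3 CPM in MOPS against 29.8, 34.7 and 32.5 CPM in HEPES, a change of -0.56 ± 0.07 (SE; edgeR adjusted p = 4.99e-08). With LPS it had 29.7, 30.1 and 27.7 CPM in MOPS with LPS against 29.2, 29.9 and 34.7 CPM in HEPES with LPS, groups that overlapped, and the change of -0.10 ± 0.07 was not called. Ndufa1, a membrane-arm subunit on the X chromosome (chrX:37187588-37191163), stayed lower in MOPS in both states. It had 31.9, 27.2 and 32.8 CPM in MOPS with LPS against 37.6, 38.8 and 43.3 CPM in HEPES with LPS, and 25.1, 22.9 and 22.0 CPM in MOPS against 33.6, 35.0 and 32.6 CPM in HEPES. Its changes between the media were -0.38 ± 0.07 (SE; edgeR adjusted p = 2.62e-05) with LPS and -0.53 ± 0.07 (SE; edgeR adjusted p = 1.16e-07) without. Ndufa11 was also lower in MOPS, with log2 changes of -0.28 ± 0.09 (SE; edgeR adjusted p = 0.00639) with LPS and -0.23 ± 0.08 without, as was Ndufb5 with -0.25 ± 0.06 and -0.32 ± 0.06, all called. On library totals the change of Ndufa11 with LPS was not called (adjusted p = 0.0605). Ndufb2 was called lower in MOPS without LPS, at -0.47 ± 0.16 (SE; edgeR adjusted p = 0.0141). The adjusted p was 0.0725 without MOPS replicate 1 and 0.149 without HEPES replicate 4. How far the reads of Ndufb2 include those of Braf was not tested.

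Higher in MOPS were 11 of the 29 accessory genes with LPS and 1 without. Ndufa6, which belongs to the family of LYR-motif proteins (chr15:82350140-82354322), had 48.0, 45.4 and 50.5 CPM in MOPS with LPS against 35.8, 35.8 and 36.5 CPM in HEPES with LPS, and 52.5, 50.1 and 47.7 CPM in MOPS against 42.6, 47.7 and 42.6 CPM in HEPES. It was higher by 0.41 ± 0.06 (SE; edgeR adjusted p = 5.56e-07) with LPS and by 0.18 ± 0.05 (SE; edgeR adjusted p = 0.00651) without, a call without LPS that was lost when MOPS replicate 1 was left out (adjusted p = 0.0519). Ndufa7 was higher with LPS by 0.29 ± 0.05 and Ndufb10 by 0.28 ± 0.06, both called. Ndufs4, needed for the NADH-oxidising end of the complex, was not called between the media, with changes of 0.02 ± 0.07 with LPS and -0.12 ± 0.07 without. The mitochondrial acyl carrier protein Ndufab1 was called in none of the 4 comparisons or the interaction on the TMM scale, its largest change being 0.09 ± 0.08. On library totals it fell with LPS by 0.53 in MOPS (adjusted p = 1.95e-07) and by 0.63 in HEPES (adjusted p = 7.54e-09). Ndufa12, with 20.3, 7.86 and 8.27 CPM in MOPS, had an SE of up to 0.57 and was called in none on either scale.

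Of the remaining accessory genes, Ndufb6, Ndufa13 and Ndufb11 had called interactions of 0.32 ± 0.09, 0.34 ± 0.08 and 0.20 ± 0.07. Ndufb9 and Ndufa2 were lower in MOPS without LPS, at -0.31 ± 0.08 and -0.21 ± 0.06, and were not called with LPS. Their interactions were not called on the TMM scale and were called on library totals (0.30 and 0.22, adjusted p = 0.0319 and 0.0353). Ndufa8 and Ndufa10 were higher in MOPS with LPS, by 0.18 ± 0.06 and 0.15 ± 0.05. Ndufa9, Ndufc1 and Ndufc2 were not called between the media, except that Ndufa9 was higher in MOPS with LPS on library totals (0.16, adjusted p = 0.00951). LPS raised these last 3 in MOPS on the TMM scale by 0.17, 0.19 and 0.19, where library totals gave -0.34, -0.32 and -0.33.

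**Figure D4:**
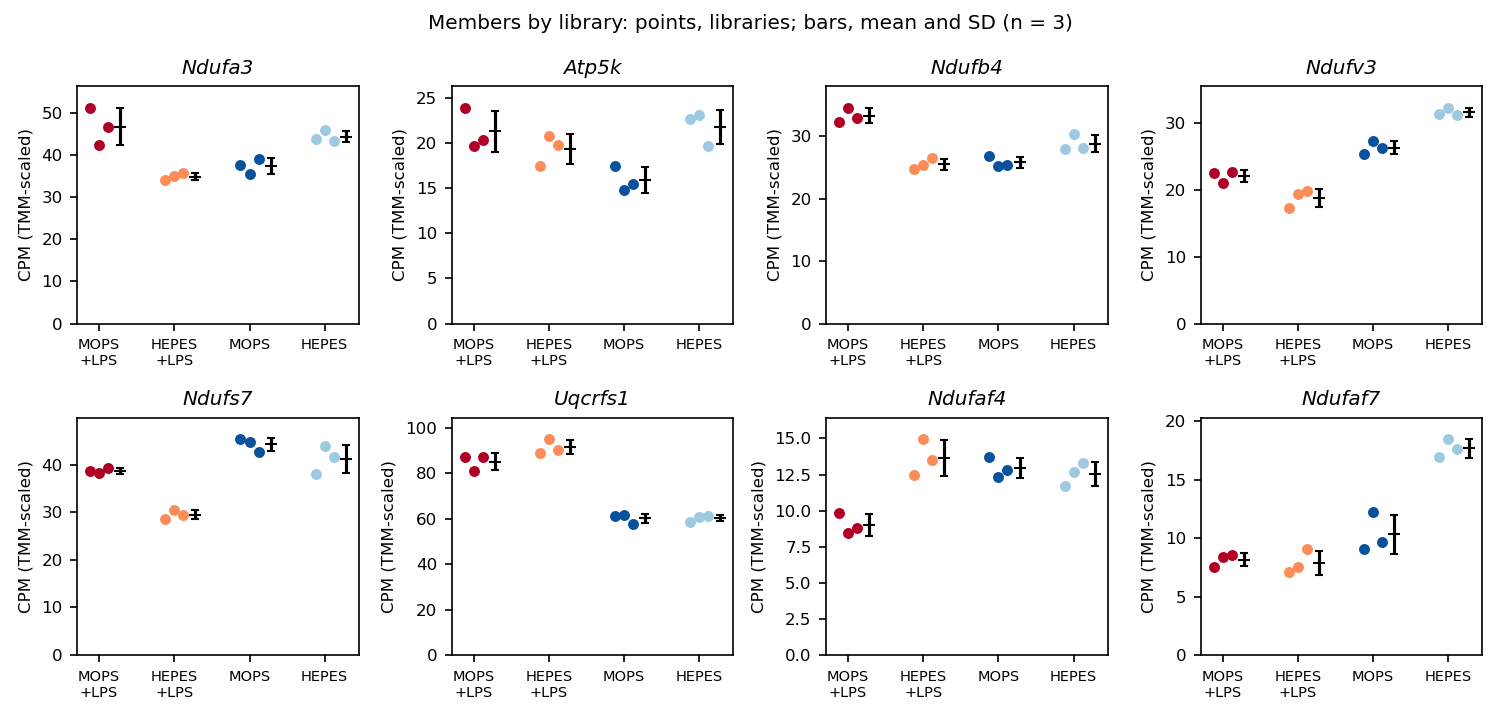
TMM-scaled CPM of 8 genes in each library, with mean and SD (n = 3) beside the points. Ndufa3 and Ndufb4 are higher in MOPS than in HEPES with LPS and lower without, Atp5k is lower without LPS and overlaps with LPS, Ndufs7 and Ndufv3 are lowest in HEPES with LPS, Uqcrfs1 is higher with LPS in both media on this scale (its change on library totals was -0.01 in MOPS and 0.02 in HEPES), Ndufaf4 is lowest in MOPS with LPS and Ndufaf7 highest in HEPES.

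The Ndufaf proteins help to build complex I and do not remain in it. Of their 8 genes, 1 was higher and 1 lower in MOPS than in HEPES with LPS, and 0 were higher and 2 lower without LPS. LPS raised 2 and lowered 4 in MOPS, and raised 1 and lowered 2 in HEPES, while on library totals 7 fell in MOPS and 8 in HEPES. Ndufaf7, a methyltransferase that acts on complex I during assembly (chr17:78937136-78948052), had 7.56, 8.42 and 8.54 CPM in MOPS with LPS against 7.08, 7.503 and 9.07 CPM in HEPES with LPS, and 9.09, 12.2 and 9.66 CPM in MOPS against 16.9, 18.5 and 17.7 CPM in HEPES. The HEPES values without LPS lay above the other 9, and the LPS groups overlapped. It was lower in MOPS without LPS, at -0.77 ± 0.10 (SE; edgeR adjusted p = 1.2e-07), while with LPS the change was 0.05 ± 0.12 and not called. With LPS it fell by 1.17 ± 0.11 (SE; edgeR adjusted p = 3.51e-11) in HEPES on the log2 scale. In MOPS it fell by 0.34 ± 0.11 (SE; edgeR adjusted p = 0.00816), with an adjusted p of 0.137 without MOPS replicate 2. The interaction was 0.82 ± 0.16 (SE; edgeR adjusted p = 9.58e-05).

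Ndufaf4 is known to work with Ndufaf3 on the ubiquinone-binding module and was the single gene whose interaction was called below 0. Ndufaf4 (chr4:24898083-24905001) had 9.82, 8.42 and 8.76 CPM in MOPS with LPS against 12.5, 14.95 and 13.5 CPM in HEPES with LPS, and 13.7, 12.3 and 12.8 CPM in MOPS against 11.7, 12.6 and 13.3 CPM in HEPES. MOPS with LPS lay below all other libraries. It was lower in MOPS than in HEPES with LPS, at -0.60 ± 0.10. With LPS it fell by 0.52 ± 0.10 (SE; edgeR adjusted p = 2.09e-05) in MOPS, where in HEPES its change of 0.12 ± 0.09 was not called, and the interaction was -0.65 ± 0.13 (SE; edgeR adjusted p = 0.000253). On library totals it fell in HEPES too, by 0.46 (adjusted p = 3.77e-05), and in MOPS by 1.04. Ndufaf3 rose with LPS by 0.53 ± 0.09 in MOPS and 0.29 ± 0.09 in HEPES on the TMM scale, where library totals gave 0.01 and -0.30. Ndufaf8, the partner of the hydroxylase Ndufaf5, was lower in MOPS without LPS, at -0.27 ± 0.09 (SE; edgeR adjusted p = 0.015), and Ndufaf5 was called in none of the comparisons on the TMM scale. On library totals Ndufaf5 fell with LPS by 0.46 in MOPS (adjusted p = 0.0148) and by 0.37 in HEPES (adjusted p = 0.0392).

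Ndufaf1, part of the membrane-arm assembly complex, fell with LPS by 0.61 ± 0.14 (SE; edgeR adjusted p = 0.000192) in MOPS. In HEPES it fell by 0.42 ± 0.13 (SE; edgeR adjusted p = 0.00468), a call lost without HEPES with LPS replicate 11 (adjusted p = 0.0649). Ndufaf6, an early assembly factor at 1.89 to 3.67 CPM, fell with LPS in MOPS by 0.54 ± 0.20 (SE; edgeR adjusted p = 0.0185), and the adjusted p ran from 0.0563 to 0.107 without MOPS replicate 3 or without MOPS with LPS replicate 8 or 9. Ndufaf2 was higher in MOPS with LPS by 0.39 ± 0.14 (SE; edgeR adjusted p = 0.0206), and the adjusted p ran from 0.101 to 0.221 without MOPS replicate 8 or HEPES replicate 10 or 11 of the LPS groups.

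Complex III takes electrons from ubiquinol to cytochrome c. On the TMM scale LPS raised 8 of its 8 genes in MOPS and 6 in HEPES with 0 lowered, whereas on library totals 0 rose and 5 fell in MOPS and 6 fell in HEPES. The median LPS change on the TMM scale was 0.34 in MOPS and 0.21 in HEPES. With LPS, 2 of 8 were higher and 1 was lower in MOPS than in HEPES, and without LPS 0 were higher and 3 lower. Uqcrfs1, the Rieske iron-sulfur protein (chr13:30540308-30545362), had 87.2, 80.9 and 87.3 CPM in MOPS with LPS against 89.1, 95.04 and 90.3 CPM in HEPES with LPS, and 61.0, 61.7 and 57.8 CPM in MOPS against 58.7, 60.7 and 61.3 CPM in HEPES. All LPS values lay above all untreated ones, and the untreated groups overlapped. Its LPS change on the TMM scale was 0.50 ± 0.05 (SE; edgeR adjusted p = 5.25e-11) in MOPS and 0.60 ± 0.05 (SE; edgeR adjusted p = 3.68e-13) in HEPES, where library totals gave -0.01 and 0.02, neither called.

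The core subunit Uqcrc1 rose with LPS by 0.21 ± 0.05 in MOPS and 0.25 ± 0.05 in HEPES on the TMM scale, and fell by 0.30 and 0.34 on library totals. Uqcrc2, the other core subunit, was higher in MOPS with LPS by 0.18 ± 0.05 (SE; edgeR adjusted p = 0.00458). Uqcr11, a small subunit at the edge of the complex (chr10:80402997-80406830), had 45.1, 38.2 and 40.4 CPM in MOPS with LPS against 35.5, 37.6 and 40.7 CPM in HEPES with LPS, and 35.6, 31.8 and 30.3 CPM in MOPS against 41.7, 43.2 and 40.4 CPM in HEPES. The MOPS values lay below the HEPES values without LPS, and the LPS groups overlapped. Its interaction was 0.48 ± 0.09 (SE; edgeR adjusted p = 0.000114), the largest in complex III, with called interactions also for Uqcr10 (0.24 ± 0.09) and Uqcrq (0.23 ± 0.08). The hinge subunit Uqcrh was lower in MOPS both with LPS (-0.16 ± 0.05) and without (-0.21 ± 0.05), the first not called on library totals (adjusted p = 0.248). Uqcrb was not called between the media, and on the TMM scale it rose with LPS by 0.47 ± 0.14 in MOPS and 0.36 ± 0.14 in HEPES (-0.04 and -0.23 on library totals).

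Complex IV reduces oxygen to water. Between the media without LPS, 9 of its 14 nuclear genes were lower and 1 was higher in MOPS, with a median log2 change of -0.25, while with LPS 4 were lower and 1 higher with a median of -0.03. LPS raised 12 of 14 in MOPS and 10 in HEPES on the TMM scale with 0 lowered, whereas on library totals 0 rose and 7 fell in MOPS and 12 fell in HEPES. Interactions called above 0 numbered 7 and below 0 numbered 0. Cox6c (chr15:35925886-35938246) had 61.2, 61.5 and 56.7 CPM in MOPS against 78.5, 81.9 and 77.2 CPM in HEPES, a fall of 0.40 ± 0.05 (SE; edgeR adjusted p = 9.7e-09) without overlap. Its LPS groups overlapped, with 85.0, 85.2 and 81.2 CPM in MOPS with LPS against 85.0, 90.9 and 90.7 CPM in HEPES with LPS, and its interaction was 0.32 ± 0.07 (SE; edgeR adjusted p = 0.000201).

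Cox7a2, a ubiquitous isoform in the membrane (chr9:79755361-79759878), stayed lower in MOPS in both states. It had 59.8, 56.0 and 55.9 CPM in MOPS with LPS against 71.3, 69.3 and 72.4 CPM in HEPES with LPS, and 41.7, 43.8 and 40.1 CPM in MOPS against 49.8, 55.1 and 55.0 CPM in HEPES. The changes were -0.31 ± 0.05 (SE; edgeR adjusted p = 6.52e-06) with LPS and -0.35 ± 0.05 (SE; edgeR adjusted p = 1.19e-06) without, and the interaction of 0.04 ± 0.07 was not called. LPS raised it in HEPES by 0.41 ± 0.05 on the TMM scale, and on library totals it fell there by 0.17 (adjusted p = 0.00248). Cox6b1, a subunit at the cytochrome c side, was likewise lower in both states, at -0.27 ± 0.05 with LPS and -0.29 ± 0.05 without, and so was Cox4i1, a regulatory subunit, at -0.21 ± 0.04 and -0.27 ± 0.04. Cox5b, a zinc-binding subunit (chr1:36691449-36693681), had 84.4, 80.8 and 84.7 CPM in MOPS with LPS against 92.3, 92.0 and 91.4 CPM in HEPES with LPS, and 57.0, 58.1 and 57.4 CPM in MOPS against 70.5, 73.5 and 75.1 CPM in HEPES. It rose with LPS by 0.53 ± 0.04 in MOPS and 0.33 ± 0.04 in HEPES on the TMM scale, where library totals gave 0.02 and -0.25. Cox7c rose with LPS by 0.55 ± 0.05 in MOPS and 0.28 ± 0.05 in HEPES on the TMM scale (0.04 and -0.31 on library totals), with an interaction of 0.28 ± 0.07 (SE; edgeR adjusted p = 0.00224). Ndufa4, named for complex I but a subunit of complex IV, was lower in MOPS without LPS, at -0.26 ± 0.05 (SE; edgeR adjusted p = 2.73e-05), and had an interaction of 0.25 ± 0.07. The abundant Cox6a1 and Cox8a were also lower in MOPS without LPS, at -0.18 ± 0.05 and -0.20 ± 0.04, with called interactions of 0.21 ± 0.07 and 0.17 ± 0.06. Cox7b was not called without LPS and was higher in MOPS with LPS, by 0.16 ± 0.06, with an interaction of 0.28 ± 0.08. Cox5a, at 0.10 ± 0.06 with LPS and 0.13 ± 0.06 without, was not called between the media on the TMM scale, and on library totals it was called higher in both states (adjusted p = 0.00766 and 0.0358).

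Where complex IV has tissue isoforms, the ubiquitous one was the more abundant in these macrophages. The ubiquitous Cox6a1 had 680.3 TPM and the heart and muscle isoform Cox6a2 had 37.5 TPM. Cox7a2 had 179 TPM and the muscle isoform Cox7a1 2.09 TPM. The ubiquitous Cox6b1 had 359 TPM and the testis isoform Cox6b2 0.866 TPM. Cox4i1 had 513 TPM and Cox8a 802 TPM, while their partners Cox4i2 and Cox8b held 1 and 3 counts over all libraries, and Ndufa4l2, known to respond to hypoxia, held 4. The scarcest isoforms had the largest log2 changes of the set, with SEs above 0.5 and calls that depended on single libraries. Cox6b2 had 0.593, 0.366 and 0.570 CPM in MOPS against 0.101, 0.349 and 0.0737 CPM in HEPES, a change of 1.49 ± 0.54 (SE; edgeR adjusted p = 0.0215), and the adjusted p ran from 0.0645 to 0.11 without MOPS replicate 1 or 3 or without HEPES replicate 4 or 6. Cox7a1 had 0.463, 0.615 and 0.661 CPM in MOPS with LPS against 0.277, 0.266 and 0.122 CPM in MOPS, an LPS change of 1.34 ± 0.51 (SE; edgeR adjusted p = 0.021) on the TMM scale and 0.84 on library totals, not called. Its adjusted p ran from 0.0578 to 0.0884 without MOPS replicate 3 or MOPS with LPS replicate 8 or 9. Cox6a2 was not called in any comparison on the TMM scale. On library totals it fell with LPS by 0.44 in MOPS (adjusted p = 0.00297) and by 0.71 in HEPES (adjusted p = 8.15e-06).

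The ATP synthase consists of the F1 head with its central stalk, a ring of c subunits, and a peripheral stalk with small membrane subunits. With LPS 4 of its 16 genes were higher and 3 lower in MOPS than in HEPES, with a median log2 change of 0.00237. Without LPS 1 was higher and 9 were lower, with a median of -0.17. LPS raised 14 of 16 in MOPS with 0 lowered, and 9 in HEPES with 2 lowered, on the TMM scale. On library totals 0 rose and 8 fell in MOPS and 15 fell in HEPES. The interaction was called above 0 in 10 and below 0 in 0.

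In the F1 head and central stalk 2 of 5 genes with LPS were higher and 1 was lower in MOPS than in HEPES, and without LPS 1 was higher and 1 lower. The gene that was lower with LPS was Atp5b, at -0.09 ± 0.04, and on library totals it was not called (adjusted p = 0.994). There 7 of the 16 ATP synthase genes were higher with LPS and 0 lower. The catalytic β subunit Atp5b (chr10:128083273-128090391) had 669.6, 649 and 664 CPM in MOPS with LPS against 687, 724 and 705 CPM in HEPES with LPS, and 478, 502 and 478 CPM in MOPS against 498, 518 and 511 CPM in HEPES. All LPS values lay above the untreated ones. Its LPS changes on the TMM scale were 0.44 ± 0.04 in MOPS and 0.47 ± 0.04 in HEPES, where library totals gave -0.07, not called, and -0.11, a fall (adjusted p = 0.00309). The α subunit Atp5a1 rose by 0.27 ± 0.04 in MOPS and 0.14 ± 0.04 in HEPES on the TMM scale, and fell by 0.24 and 0.44 on library totals. The γ subunit Atp5c1, the rotating shaft, was higher in MOPS with LPS by 0.23 ± 0.04 (SE; edgeR adjusted p = 6.63e-05), with an interaction of 0.17 ± 0.06. The δ subunit Atp5d was the only ATP synthase gene higher in MOPS without LPS, by 0.15 ± 0.05 (SE; edgeR adjusted p = 0.0122), whereas the ε subunit Atp5e was lower, at -0.36 ± 0.06 (SE; edgeR adjusted p = 4.4e-05).

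The c ring is encoded by 3 genes known to give the same mature protein with different targeting peptides. Atp5g3 (chr2:73908447-73911326) had 108, 102 and 118 CPM in MOPS with LPS against 123, 127 and 126 CPM in HEPES with LPS, and 84.1, 76.9 and 82.9 CPM in MOPS against 87.1, 87.5 and 89.6 CPM in HEPES. Its LPS change was 0.42 ± 0.05 (SE; edgeR adjusted p = 2.7e-09) in MOPS and 0.51 ± 0.05 (SE; edgeR adjusted p = 2.81e-11) in HEPES on the TMM scale (-0.09 and -0.08 on library totals, neither called), and it was lower in MOPS with LPS, at -0.20 ± 0.05 (adjusted p = 0.0603 on library totals). Atp5g2 (chr15:102662864-102672352) had 84.4, 82.4 and 88.1 CPM in MOPS with LPS against 76.3, 72.2 and 73.8 CPM in HEPES with LPS, and 82.7, 81.8 and 77.0 CPM in MOPS against 82.7, 86.2 and 82.0 CPM in HEPES. HEPES with LPS lay below the other 3 groups. It fell with LPS in HEPES by 0.17 ± 0.05 (SE; edgeR adjusted p = 0.000886) and was higher in MOPS with LPS by 0.20 ± 0.05 (SE; edgeR adjusted p = 0.000538), with an interaction of 0.25 ± 0.06 (SE; edgeR adjusted p = 0.00191). Atp5g1, the least abundant at 20.01 TPM, rose with LPS by 0.43 ± 0.09 in MOPS and 0.31 ± 0.09 in HEPES on the TMM scale (-0.08 and -0.28 on library totals). A near-identical pseudogene had a count equal to 35.72% of its own.

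All 8 genes of the peripheral stalk and membrane part had a negative log2 change between the media without LPS, and 6 of these were called lower in MOPS. LPS raised 8 of 8 in MOPS and 4 in HEPES on the TMM scale, where on library totals 3 and 8 fell. Atp5k, subunit e, which helps ATP synthases to form dimers (chr5:108433244-108434448), had 24.0, 19.7 and 20.3 CPM in MOPS with LPS against 17.5, 20.8 and 19.8 CPM in HEPES with LPS, and 17.5, 14.8 and 15.5 CPM in MOPS against 22.7, 23.2 and 19.7 CPM in HEPES. MOPS without LPS lay below HEPES without overlap, while the LPS groups overlapped. It was lower in MOPS without LPS, at -0.46 ± 0.08 (SE; edgeR adjusted p = 4.26e-05). Its interaction of 0.60 ± 0.12 (SE; edgeR adjusted p = 0.000266) was the largest in the ATP synthase, with LPS changes of 0.42 in MOPS and -0.17 in HEPES, the second not called, where library totals gave -0.09 and -0.76. Atp5o, which holds the stalk to the head, was lower in MOPS without LPS, at -0.42 ± 0.05, with an interaction of 0.38 ± 0.07, and the membrane subunit Atp5j2 had -0.32 ± 0.06 and 0.39 ± 0.08, all called. Atp5mpl, a small associated protein, was lower in MOPS in both states, at -0.21 ± 0.06 with LPS and -0.40 ± 0.06 without, the first not called on library totals (adjusted p = 0.108). Subunit d, Atp5h, was higher in MOPS with LPS by 0.13 ± 0.05 with an interaction of 0.22 ± 0.07. Atp5j, coupling factor F6, was lower without LPS at -0.30 ± 0.05 with an interaction of 0.19 ± 0.07, and subunit b, Atp5f1, was not called between the media. Atp5l, subunit g, rose with LPS in MOPS by 0.50 ± 0.05 on the TMM scale (-0.01 on library totals).

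Cox7a2l is known as a factor of supercomplexes, and its function in the mice used here was not measured. It had 119.9, 113 and 125 CPM in MOPS with LPS against 132, 129.7 and 128 CPM in HEPES with LPS. Without LPS it had 125, 123 and 115 CPM in MOPS against 132, 137 and 126 CPM in HEPES. It was lower in MOPS in both states, at -0.12 ± 0.05 (SE; edgeR adjusted p = 0.0265) with LPS and -0.12 ± 0.04 (SE; edgeR adjusted p = 0.024) without, neither called on library totals (adjusted p = 0.628 and 0.0569). Its LPS change was called in neither medium on the TMM scale, and was -0.53 in MOPS and -0.61 in HEPES on library totals. Atp5s, known as coupling factor B, had 3.96, 3.31 and 2.26 CPM in MOPS with LPS against 2.50, 2.61 and 2.06 CPM in HEPES with LPS, and 6.88, 6.39 and 5.78 CPM in MOPS against 4.25, 4.61 and 4.31 CPM in HEPES. It was higher in MOPS without LPS by 0.53 ± 0.15 (SE; edgeR adjusted p = 0.00284). With LPS it fell by 0.99 ± 0.16 (SE; edgeR adjusted p = 2.43e-06) in MOPS and fell by 0.88 ± 0.18 (SE; edgeR adjusted p = 5.04e-05) in HEPES, as it did on library totals.

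**Figure D5:**
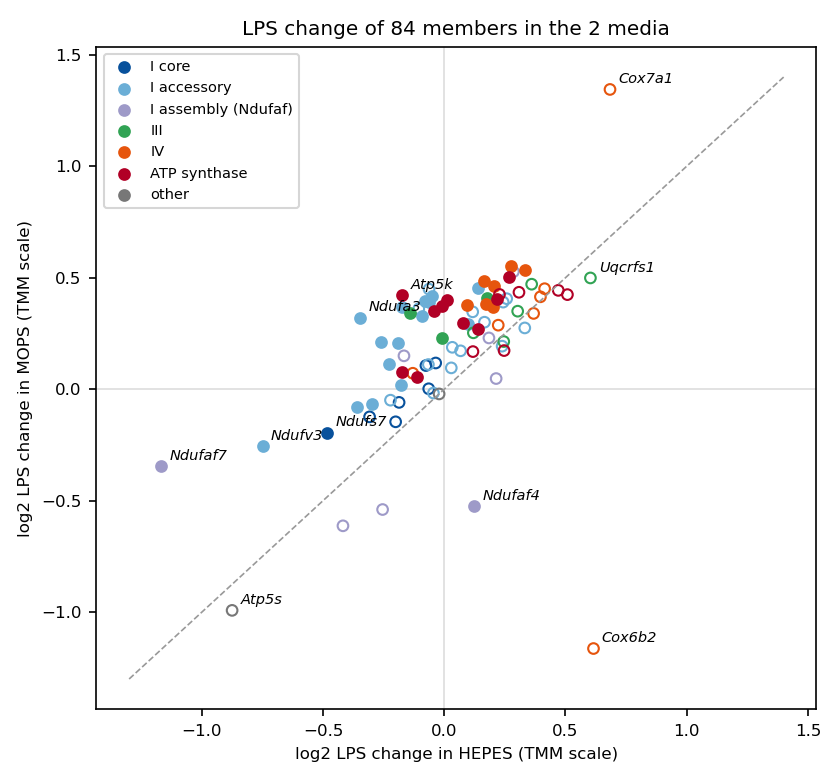
Log2 LPS change of each of the 84 genes in MOPS (vertical) and HEPES (horizontal) on the TMM scale, coloured by role, with filled points where the interaction was called at edgeR adjusted p under 0.05. Of the 38 filled points 37 lie above the dashed line of equal change and Ndufaf4 lies below it; on library totals no gene has a called rise in either medium.

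Across the 84 genes the LPS changes in the 2 media correlated with r = 0.544 (Pearson) and rho = 0.633 (Spearman), beside 0.903 and 0.876 across all 14506 tested genes. These describe genes within the same 12 libraries, and genes are not independent replicates. Genes with the NRF1 motif (16) had an interaction called above 0 in 10 and below 0 in 1, with a median of 0.23. Genes with a promoter but without the motif (53) had 24 and 0, with a median of 0.19.

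The genes were also split by coding length. The median coding length of the 84 genes was 426 bases, with 42 genes at or below it and 42 above. Without LPS, 31 of the 42 shorter genes were lower in MOPS and 9 of the 42 longer ones. Among all tested genes with a coding length, 39.2% of the 740 with up to 426 bases were lower in MOPS, against 27% of the 11418 longer ones. With LPS, 9 of the shorter and 15 of the longer were higher in MOPS and 8 and 5 lower, beside 25.3% and 29.9% of all tested genes higher and 26.6% and 30.3% lower in these length classes. LPS in MOPS raised 37 of the 42 shorter and 17 of the 42 longer genes on the TMM scale, beside 45.4% and 34.7% of all tested genes. In HEPES it raised 19 of the shorter and 12 of the longer, beside 35.7% and 37.1%, and lowered 4 and 15, beside 35% and 43.6%. The interaction was called above 0 in 25 of the shorter and 12 of the longer genes, beside 32.4% and 23.8%. The part of transcript length in the results was not tested. An offset for GC content and length was a setting chosen after seeing the data. In it, 20 of the 84 genes were higher and 18 lower in MOPS than in HEPES with LPS, beside 24.9% and 29.5% of all tested genes. Without LPS 12 were higher and 33 lower, beside 26.8% and 23.5%. In that setting LPS raised 53 and lowered 11 in MOPS on the TMM scale, beside 36% and 32.3%. In HEPES LPS raised 36 and lowered 11, beside 39.5% and 36.6%. The interaction was called above 0 in 22 and below 0 in 4, beside 18% and 21.8%.

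Of the 13 subunits encoded in mitochondrial DNA, 6 were lower and 0 higher in MOPS than in HEPES with LPS, with a median log2 change of -0.21, and without LPS 9 were lower and 0 higher, with a median of -0.44. LPS raised 10 in MOPS and 7 in HEPES on the TMM scale with 0 lowered, whereas on library totals 6 and 10 fell. The interaction was called above 0 in 1 on the TMM scale and in 5 on library totals. The complex I subunit mt-Nd1 averaged 939.9 ± 6.17 CPM in MOPS with LPS, 1237 ± 70.3 CPM in HEPES with LPS, 730.4 ± 10.4 CPM in MOPS and 1033 ± 68.0 CPM in HEPES (SD, n = 3 each). Its change between the media was -0.40 ± 0.04 (SE; edgeR adjusted p = 2.62e-09) with LPS and -0.50 ± 0.04 (SE; edgeR adjusted p = 2.57e-11) without. The interaction called on the TMM scale was that of mt-Co2, a complex IV subunit, at 0.61 ± 0.12 (SE; edgeR adjusted p = 0.000151). Its group means ran from 12.8 CPM in MOPS to 21.5 CPM in HEPES. Those of mt-Co1, also of complex IV, ran from 3828 CPM in MOPS to 4920 CPM in HEPES with LPS. Group means of mt-Atp6, mt-Atp8, mt-Co3, mt-Nd3 and mt-Nd4l were at most 14.2 CPM, and the counts and medians above include these genes. Copies elsewhere in the genome were not searched for the mitochondrial genes, so the part of shared reads was not tested.

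Of complex II and cytochrome c with cytochrome c1 (6 genes), 1 was higher and 0 lower in MOPS than in HEPES with LPS, and 2 were higher and 1 lower without. LPS raised 3 and lowered 0 in MOPS, and raised 2 and lowered 2 in HEPES, where on library totals 1 rose and 5 and 4 fell. Cytochrome c itself, Cycs, rose with LPS by 0.80 ± 0.05 (SE; edgeR adjusted p = 2.68e-15) in MOPS and 0.96 ± 0.05 (SE; edgeR adjusted p = 1.31e-17) in HEPES on the TMM scale, and by 0.28 and 0.38 on library totals. Cyc1, the heme subunit of complex III, was higher in MOPS without LPS by 0.33 ± 0.05 (SE; edgeR adjusted p = 3.32e-06), and its interaction was below 0, at -0.27 ± 0.07 (SE; edgeR adjusted p = 0.00368). The iron-sulfur subunit of complex II, Sdhb, had an interaction of 0.32 ± 0.07 (SE; edgeR adjusted p = 0.000344) and was higher in MOPS with LPS by 0.25 ± 0.05 (SE; edgeR adjusted p = 9.53e-05).

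Assembly factors without these symbol prefixes numbered 40, of which 38 were tested. LPS lowered 20 of 38 and raised 6 in MOPS, and lowered 23 and raised 7 in HEPES, where on library totals 31 and 33 fell and 2 rose in each medium. Between the media with LPS, 6 were higher in MOPS and 8 lower (15.8% and 21.1%), beside 26.9% and 26.9% of all tested genes. Without LPS 6 were higher and 11 lower (15.8% and 28.9%), beside 24.3% and 25.4%. The interaction was called above 0 in 7 and below 0 in 4 (18.4% and 10.5%), beside 21.9% and 17.6%. Tmem126b, of the membrane-arm assembly complex of complex I, fell with LPS by 2.05 ± 0.11 (SE; edgeR adjusted p = 1.86e-16) in MOPS and 2.19 ± 0.11 (SE; edgeR adjusted p = 6.14e-18) in HEPES. Ttc19, a complex III factor, rose by 1.24 ± 0.07 (SE; edgeR adjusted p = 3.91e-16) in MOPS and 1.81 ± 0.07 (SE; edgeR adjusted p = 9.2e-21) in HEPES. Both kept their direction on library totals. Surf1, a complex IV factor, averaged 19.9 ± 0.827 CPM in MOPS with LPS, 10.5 ± 0.479 CPM in HEPES with LPS, 33.0 ± 1.01 CPM in MOPS and 23.8 ± 0.159 CPM in HEPES (SD, n = 3 each). It was higher in MOPS by 0.92 ± 0.08 (SE; edgeR adjusted p = 9.39e-12) with LPS and 0.47 ± 0.06 (SE; edgeR adjusted p = 8.79e-08) without.

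Of the 4 genes of the ATP synthase inhibitor and the carriers for nucleotides and phosphate, 1 was higher and 2 lower in MOPS than in HEPES with LPS, and 4 were lower without. The ADP/ATP carrier Slc25a4 was lower, at -0.46 ± 0.05 (SE; edgeR adjusted p = 6.6e-09) with LPS and -0.61 ± 0.05 (SE; edgeR adjusted p = 7.73e-12) without. The inhibitor Atpif1 was lower without LPS, at -0.14 ± 0.05 (SE; edgeR adjusted p = 0.0332), not called on library totals. With LPS it was higher, by 0.28 ± 0.06 (SE; edgeR adjusted p = 0.000107), and its interaction was 0.42 ± 0.08 (SE; edgeR adjusted p = 6.7e-05). LPS raised 3 of the 4 in MOPS, and raised 2 and lowered 1 in HEPES, on the TMM scale, whereas on library totals all 4 fell in both media.

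Of 18 tested regulators of mitochondrial biogenesis (19 found), 4 were higher and 8 lower in MOPS than in HEPES with LPS, and 6 were higher and 4 lower without. LPS raised 8 and lowered 9 in MOPS, and raised 12 and lowered 6 in HEPES, on the TMM scale, where on library totals 5 rose and 11 fell in MOPS and 4 rose and 12 fell in HEPES. Interactions called above 0 numbered 5 and below 0 numbered 8. The coactivator Pprc1 rose with LPS by 0.49 ± 0.05 (SE; edgeR adjusted p = 1.69e-09) in MOPS and 1.12 ± 0.05 (SE; edgeR adjusted p = 2.22e-18) in HEPES on the TMM scale (-0.03 and 0.54 on library totals), with an interaction of -0.64 ± 0.08 (SE; edgeR adjusted p = 5.21e-08). Nfe2l2, a regulator of the response to oxidants, had the opposite difference, with an interaction of 1.05 ± 0.05 (SE; edgeR adjusted p = 1.59e-16). The genes of the factors whose motifs were searched, named after their values were seen, each had an interaction below 0: Nrf1 at -0.39 ± 0.10 (SE; edgeR adjusted p = 0.00347), Gabpa at -0.34 ± 0.07 (SE; edgeR adjusted p = 0.000112) and Yy1 at -0.31 ± 0.06 (SE; edgeR adjusted p = 5.28e-05).

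At an adjusted p under 0.05 in the authors' deposited table, MOPS had 16 of the 84 genes higher and 8 lower than HEPES with LPS, and 5 higher and 33 lower without. LPS there raised 50 and lowered 5 in MOPS, and it raised 31 and lowered 12 in HEPES. The tests here gave the same direction for 23, 38, 55 and 43 of those calls, in that order of comparisons, and the opposite direction for 0. The share of all genes called in the deposited table is not given here, so these counts have no background beside them.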

How the data were processed

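Bulk RNA-seq counts of 12 libraries, 3 in each of 4 groups given by the labels, were analysed. The submitters' processing notes name CASAVA 1.8, HISAT2 2.0.5, featureCounts 1.5.0-p3 and build mm10, without role or order, and the strand setting is not given in the sources used here. Raw counts per gene were deposited by the authors, beside FPKM values, a gene length, and the authors' own fold changes and p-values (their test is not stated). The FPKM values were used for no test. Counts were tested with edgeR 4.0.16 (R 4.3.3): filterByExpr, TMM, a robust quasi-likelihood fit of all 4 groups and Benjamini-Hochberg adjustment over all 14506 tested genes, with 8 residual degrees of freedom. The filter, fit and calls were tested on simulated counts. TPM was computed from the counts and the deposited gene length. Overlaps and copies came from GENCODE vM21 and BLAST 2.17.0 (at least 95% identity over at least 150 bases and 50% of the coding length).

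The genes, lists and roles were chosen with earlier results of these data known. The rule for names took, per comparison, up to 5 genes with the largest called rise and 5 with the largest called fall whose groups did not overlap (overlap not asked for the interaction), the 2 highest and the lowest gene by TPM in each complex, isoforms, core subunits and the Ndufaf series, and in each other list up to 3 genes by adjusted p. Members outside that rule were named after their values were seen. A result on 1 of the genes is not reported here. The alternatives were RLE factors, library totals, 2 other filters, DESeq2 1.42.0, the 2 groups alone, each library left out, and a GC and length offset chosen after seeing the data.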

Additional observations from a re-analysis of the deposited data

Results flagged for a closer look

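The interaction was called above 0, a higher LPS change in MOPS than in HEPES, in 37 of the 84 genes by edgeR's test. It was called below 0 in 1 gene. Among all tested genes 21.9% were called above 0 and 17.6% below 0. The 37 became 22 without MOPS with LPS replicate 7, where 17.4% of all tested genes were called above 0 and 19.7% below. Among the genes with the largest such differences, the assembly factor Ndufaf7 had an interaction of 0.82 on the log2 scale, with all 3 HEPES values without LPS above the other 9 libraries. The complex I subunits Ndufa3, Ndufb4 and Ndufv3 had interactions of 0.67, 0.54 and 0.49, and the ATP synthase subunit Atp5k had 0.60. Ndufaf4 was the 1 gene called below 0, at -0.65, with all 3 values in MOPS with LPS below the other 9 libraries. The media are compared as a whole, so the effects of buffer and pH cannot be told apart in these differences. B cell markers summed higher in MOPS in both states, and the part of cell composition in these differences was not tested.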

How the results depend on the processing

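No paired analysis was made. The libraries are numbered 1 to 12 across the groups, and the labels do not say whether libraries of different groups share a mouse or culture. On library totals in place of TMM, LPS in MOPS gave 0 genes called higher and 56 lower, beside 14.4% and 65.5% of all tested genes. LPS in HEPES gave 0 and 78, beside 17.2% and 66.6%. Between the media with LPS 40 were higher and 6 lower in MOPS, beside 33.7% and 20.3%. DESeq2 called 24 interactions above 0, beside 17.8% of all tested genes, and RLE factors gave 29, beside 19.2%. The GC and length offset gave 22 interactions called above and 4 below 0, beside 18% and 21.8% of all tested genes. It gave 12 higher in MOPS without LPS, beside 26.8%, and 11 lower with LPS in HEPES, beside 36.6%. Role medians, taken as log2 change minus the all-gene median of the same setting, are given next under that offset; the cause was not tested. All 84 genes went to 0.081 for the interaction (0.125 with TMM), 0.231 for LPS in MOPS (0.325) and -0.0647 without LPS (-0.115). ATP synthase genes went to 0.0917 for the interaction (0.132) and 0.303 for LPS in MOPS (0.423), and complex I core genes to 0.0316 for the interaction (0.093). Complex I accessory genes went to 0.109 for the interaction (0.173), 0.189 for LPS in MOPS (0.309), -0.15 without LPS (-0.191) and -0.038 for LPS in HEPES (0.0212). Complex III genes went to 0.256 for LPS in MOPS (0.38) and 0.22 in HEPES (0.296). Complex IV genes went to 0.076 for the interaction (0.142), 0.308 for LPS in MOPS (0.433) and -0.179 without LPS (-0.235), and to 0.283 for LPS in HEPES (0.334) with at least 10 counts in at least 6 libraries. With each library left out in turn, interactions called above 0 numbered 22 to 36 and below 0 numbered 1 to 2 (2 without HEPES replicate 5). The shares of all tested genes called ran from 16.8% to 20.2% above 0 and from 15.7% to 19.7% below 0. Between the media with LPS 13 to 25 were higher and 13 to 20 lower, beside 22% to 26.5% and 24.5% to 28% of all tested genes. Medians then ran from -0.158 to -0.0992 for all genes without LPS. ATP synthase medians ran from 0.0988 to 0.168 for the interaction and from 0.367 to 0.432 for LPS in MOPS. Complex I accessory medians ran from 0.14 to 0.241 for the interaction, from 0.246 to 0.317 for LPS in MOPS and from -0.23 to -0.142 without LPS. Complex III medians ran from 0.236 to 0.338 for LPS in HEPES and from -0.0598 to 0.0259 between the media with LPS. Complex IV medians ran from 0.0681 to 0.172 for the interaction and from -0.267 to -0.152 without LPS. Of 46 named gene and comparison pairs, 8 lost their call on library totals and 5 changed sign there. The LPS rises in HEPES of Atp5b, Cox7a2 and Cox6b1 became called falls of -0.11, -0.17 and -0.19 (adjusted p = 0.00309, 0.00248 and 0.000616). RLE factors, DESeq2, the fit without a filter and the GC and length offset changed 0 of these 46 calls. Counts of under 1 CPM, as for Cox6b2 and Cox7a1, limit those calls.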
